A study of Mus musculus with 6 samples.

Results

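Homologous recombination and the Fanconi pathway repair DNA breaks and crosslinks, and 42 mouse genes of the repair machinery and its checkpoint were followed in RNA from tumor-associated macrophages (TAMs). The genes were chosen by symbol, and all 42 were found among the 22377 genes of the count table. The series holds 6 RNA-seq libraries, 3 with the label wt and 3 with the labels ko and knockdown. According to the study, macrophages gated on CD45, CD11b and the product of Adgre1 came from subcutaneous tumors of LLC, a mouse Lewis lung carcinoma line, grown in young mice of both sexes that were Npm1+/+ or heterozygous, Npm1+/-. Since the tumor cells were implanted, the genotype is that of the host. The labels name no genotype, age or sex, and give tumor tissue, TRIzol and a small RNA protocol as material and method, which differs from the sort and the low-input cDNA kit of the study. The groups are therefore called wt and knockdown here, as labelled, and replicates are numbered as in the labels. The labels call each library a separate biological sample and do not name the animal, and the study gives fewer mice per group for a display of these data than there are libraries here, so the SDs and tests below are over libraries.

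Homologous recombination copies an intact sister chromatid to mend a double-strand break, so it is largely restricted to the S and G2 phases. Nucleases resect the broken ends, BRCA1-BARD1, PALB2 and BRCA2 prepare the exposed single strand for the search for homology, and helicases and nucleases take the joined molecules apart. The Fanconi pathway uses the same machinery where a crosslink stalls a replication fork: a core ubiquitin ligase modifies FANCD2-FANCI, which then brings in nucleases. Differentiated macrophages divide little, although TAMs can proliferate within the tumor. ATR, CHEK1, TOPBP1 and claspin signal from stalled forks, and ATM and CHEK2 signal from breaks.

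Total counts per library lay between 36550775 and 38147320, and 3 counts, the most that a count of 0 allows, were worth 0.0716 to 0.0846 CPM (counts per library made comparable by the TMM method), which covers counting error only. Npm1 was not lower in the libraries labelled knockdown. Its level was 142, 380 and 381 CPM in wt 1, 2 and 3, and 441, 499 and 343 CPM in knockdown 1, 2 and 3 (log2 fold change 0.51, SE 0.36, adjusted p = 0.436 in edgeR, and 0.16 without wt 1). Directions below are those of the libraries so labelled. The library wt 1 stood apart on the first principal component, which held 68.0% of the variance, with a score of -108 where the other libraries lay between -4.54 and 52.0. Counts and medians, and differences that moved by more than 1.5 times or changed sign, are therefore also given without it. Macrophage markers differed widely in level. Itgam, CD11b, was the highest at 1493 to 2975 CPM, while Adgre1 stood at 127 to 302 CPM and Mertk at 5.13 to 9.52 CPM. The neutrophil marker S100a9 stood at 356 to 970 CPM. Of the carcinoma and epithelial markers, Krt19 and Cldn4 had no count in 5 of 6 libraries each, while Krt8 stood at 9.90 to 171 CPM and Cdh1 at 9.43 to 24.3 CPM.

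The repair genes leaned towards higher levels in the knockdown libraries, but edgeR called none of them at an adjusted p under 0.05. Of the 42 genes, 34 were higher and 8 lower in knockdown, where 52.1% of all 13884 genes tested had a positive log2 fold change. Their median log2 fold change was 0.67, against 0.02 over all genes tested. The largest difference was that of Bard1, the partner of BRCA1, at 2.92-fold. Differences over 1 on the log2 scale were seen for 8 genes, 16 lay between 0.5 and 1, and 10 between 0 and 0.5, while 8 were below 0, the lowest being Slx4 at -0.34.

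In edgeR's quasi-likelihood test 0 of 13884 genes passed, a share of 0%, and the smallest adjusted p was 0.328. At an unadjusted p under 0.05, 9 of the repair genes were higher and 0 lower, against 6.90% of all genes tested that were higher and 8.31% that were lower. The count of 9 changed with single libraries left out. It was 1 without knockdown 2, 4 without knockdown 1, and 6 higher and 1 lower (Slx4) without wt 2. It was 7 without wt 1 or without knockdown 3, and 11 without wt 3. The count over all genes changed too, from 2112 of 13884 with all libraries. It was 669 of 14070 without knockdown 2 and 775 of 14122 without knockdown 1. Without wt 2 it was 2689 of 14296, and without wt 1 it was 1744 of 14311. Without knockdown 3 it was 2466 of 14290, and without wt 3 it was 2403 of 14283. DESeq2 called 36 genes among 13699 with an adjusted p, 0.263%, and Bard1 was the 1 repair gene among them.

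Without wt 1, 34 genes were higher and 8 lower, with 53.7% of all 14311 genes then tested positive. These were not all the same genes: 6 changed sign, with Rbbp8, Chek2 and Fan1 below 0 and Rad51d, Rad52 and Fancg above 0 without wt 1. The median log2 fold change was then 0.44, and 7 genes reached an unadjusted p under 0.05, all higher, against 6.81% of all genes. In DESeq2 without wt 1, 71 genes or 0.541% were called, and Bard1 was again the 1 repair gene. Without both wt 1 and knockdown 3, a choice of libraries known from earlier results of these data, DESeq2 called 1267 genes or 10.2%, among them Bard1, Chek1, Fanca and Topbp1.

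**Figure D1:**
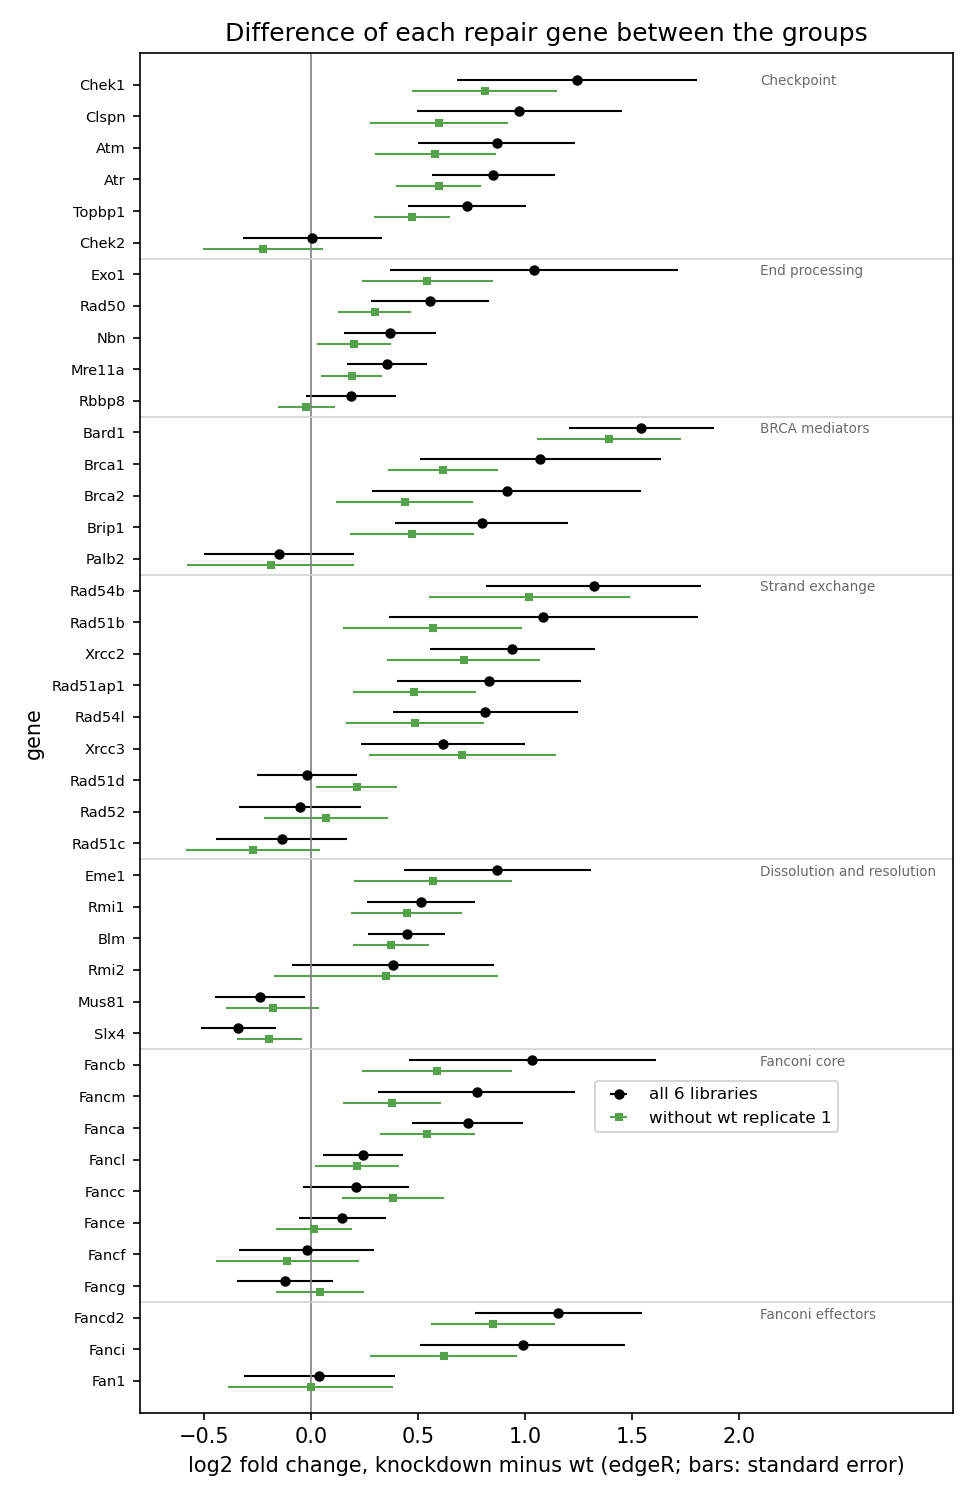
Log2 fold change (horizontal axis, knockdown minus wt) of each of the 42 genes by role, with the standard error as bars, from all 6 libraries (black circles) and without wt replicate 1 (green squares). In the 6 libraries 34 of the genes lie above 0, Bard1 is highest at 1.54, and Slx4 is lowest at -0.34.

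The groups did not overlap for 12 of the genes. In 11 of them (Bard1, Fancd2, Atr, Topbp1, Rad54b, Blm, Brip1, Brca1, Fancm, Xrcc3 and Rad51b) every knockdown library lay above every wt library, where 13.3% of all genes tested did so. Slx4 alone was lower in every knockdown library, where 12.6% of all genes tested were. Without wt 1, 13 genes lay wholly higher and 1 wholly lower, against 16.7% and 14.8% of all genes.

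Much of the spread was between libraries of 1 group. The lowest level was in wt 1 for 29 of the 42 genes, 69.0%, where 33.5% of all genes tested had their lowest level there. The highest level was in knockdown 2 for 25 genes, 59.5%, against 25.1% of all genes. Among the 34 genes that were higher, wt 1 was the lowest wt library in 28 and knockdown 3 the lowest knockdown library in 29. The wt libraries differed more among themselves than the knockdown libraries did, by the SD of log2 CPM, in 35 of the 42 genes (83.3%) and in 68.3% of all genes tested.

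**Figure D2:**
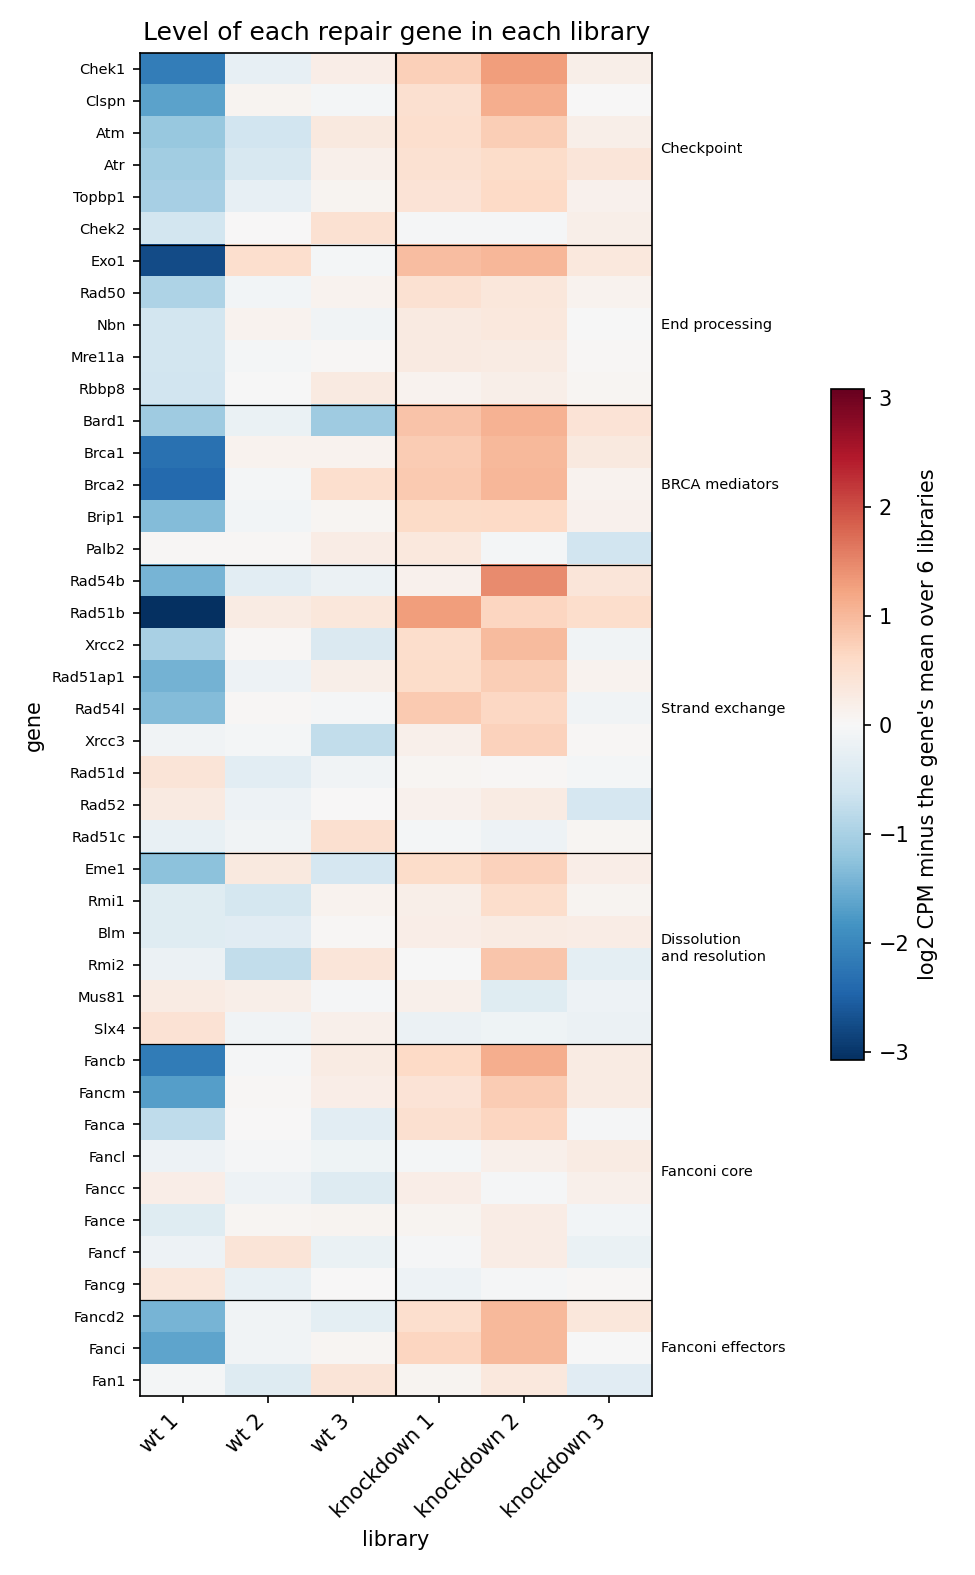
Level of each of the 42 genes (rows, by role) in each of the 6 libraries (columns), as log2 CPM minus the gene's mean over the libraries, with blue below and red above that mean. The darkest blue is in wt 1, where 29 of the genes have their lowest level, and the red is strongest in knockdown 2, where 25 have their highest.

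**Figure D3:**
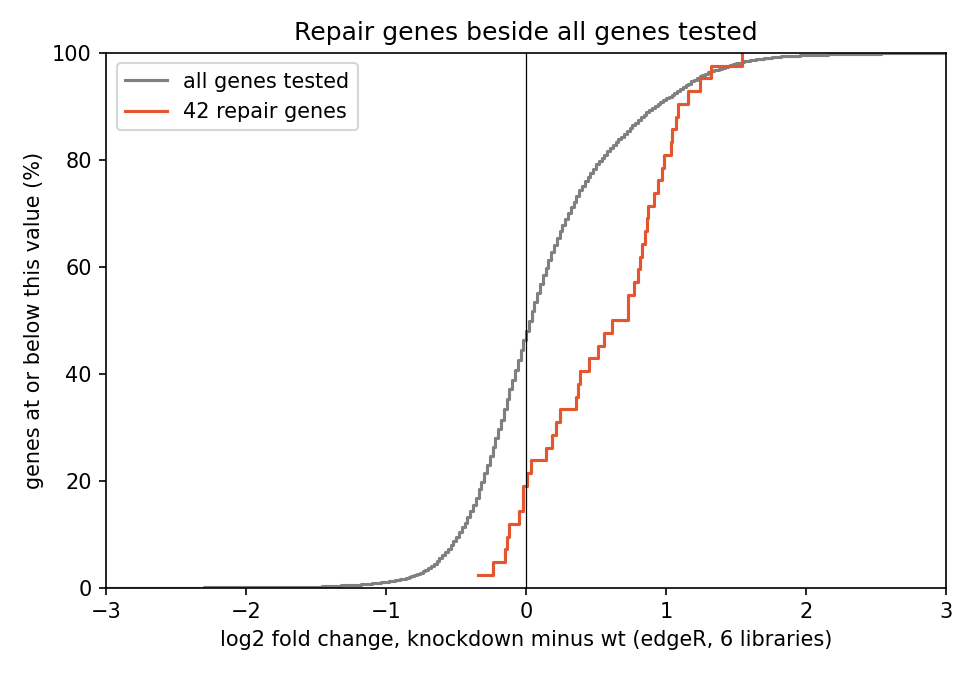
Percentage of genes (vertical axis) at or below each log2 fold change (horizontal axis, knockdown minus wt, all 6 libraries) for all 13884 genes tested (grey) and the 42 repair genes (red). The red curve lies to the right over most of its course, with a median of 0.67 against 0.02, and the curves meet near the top.

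Compared per length, as FPKM (fragments scaled to transcript length and library total), these were mostly low transcripts. Mean FPKM over the 6 libraries was over 1 for 22 genes and at or under 1 for 20. The highest were Rbbp8 (CtIP, a resection factor) at 11.96 and Topbp1, an activator of ATR, at 11.7. They were followed by Fance at 4.72, Fancl at 4.46, Fanca at 3.98, Mre11a at 3.97 and Mus81 at 3.92, and the lowest were Rad54b at 0.237 and Rad51b at 0.181. Of the genes with a mean FPKM over 1, 16 were higher in knockdown, and of those at or under 1, 18 were. All 42 passed the filter on low counts, and 41 had at least 10 counts in every library. The exception was Rad51b, a strand-exchange gene, with 3 counts in wt 1.

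Promoters were examined because many of these genes were higher together. E2F factors switch on S-phase genes through sites such as TTCCCGC. That word, the variant TTGGCGC, a further variant TTGCCGC and lastly the word TTCGCGC were searched on both strands of the RefSeq promoters of GRCm38.p6, each 300 bases long from 250 before to 50 after the start, and 33 of the 42 genes matched an entry. A gene with more than 1 promoter was counted as matched if any of them held the word. At least 1 of these E2F-type words was present for 19 of the 33 genes, 57.6%. The share was 10.9% of all 27025 genes with a promoter and 18.5% of the 10999 of these that were tested. Among the 19 genes with a match 15 were higher in knockdown, with a median log2 fold change of 0.80, and among the 14 without one 11 were higher, with a median of 0.30. CCAAT was present for 20 genes, 60.6%, against 42.7% of the tested genes with a promoter, and here the median was 0.67 with and 0.73 without a match. The CHR word TTTGAA, known from genes of G2 and mitosis, was present for 3 genes, 9.09%, against 15.0%, with medians of 1.09 and 0.57. These medians were not tested against each other. A match is a description of the letters and not of a bound site. Stretches around a match that lie before the first annotated exon are shown on the gene's strand, 5′ to 3′. They are those of Bard1, Topbp1 and Blm, whose groups did not overlap, and of Brca2 and Fancb, whose groups did. All of these genes were higher in knockdown. Rad51c, Chek2 and Rmi1 also had such a stretch, which is not shown. Their log2 fold changes were -0.14, 0.01 and 0.51, with overlapping groups. Capitals mark the E2F-type word or, as GCGGGAA, its reverse complement, and the capitals of Topbp1 hold the overlapping matches of TTGGCGC and, on the other strand, TTCGCGC. The stretches are chr1:71103147-71103210 (minus strand) for Bard1, chr9:103305165-103305214 (plus) for Topbp1, chr7:80535120-80535170 (minus) for Blm, chr5:150522423-150522489 (plus) for Brca2 and chrX:164980390-164980456 (plus) for Fancb.
Bard1: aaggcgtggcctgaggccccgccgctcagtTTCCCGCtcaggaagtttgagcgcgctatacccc
Topbp1: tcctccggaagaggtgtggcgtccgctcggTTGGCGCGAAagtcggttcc
Blm: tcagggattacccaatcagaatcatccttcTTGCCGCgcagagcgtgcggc
Brca2: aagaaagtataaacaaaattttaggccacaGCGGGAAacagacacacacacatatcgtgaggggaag
Fancb: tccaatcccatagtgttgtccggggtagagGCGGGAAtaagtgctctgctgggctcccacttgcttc

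Among the 5 BRCA mediators 4 were higher, 3 without overlap, with a median log2 fold change of 0.91, or 0.47 without wt 1. Bard1 had the largest difference of the 42 genes. Bard1 (chr1:71027498-71103146, minus strand, GRCm38) encodes the RING partner that BRCA1 needs as a ubiquitin ligase. Its level was 1.94, 3.58 and 1.92 CPM in wt 1, 2 and 3, and 7.58, 8.59 and 5.55 CPM in knockdown 1, 2 and 3. All knockdown libraries thus lay above all wt libraries, with means of 2.48 ± 0.951 and 7.24 ± 1.55 (SD, n = 3). On the log2 scale the difference was 1.54 (SE 0.34), the unadjusted p of 0.00214 ranked 31 of 13884 in edgeR, and the adjusted p was 0.328. DESeq2 gave 1.52 (SE 0.35) with an adjusted p of 0.0176, and 0.0201 without wt 1. Unlike most of these genes, Bard1 was as low in wt 3 as in wt 1, and its log2 fold change without wt 1 was 1.39. No annotated exon of another gene overlapped those of Bard1.

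Brca1 (chr11:101488764-101551955, minus strand) followed another pattern among the wt libraries. It stood at 0.928, 4.88 and 4.89 CPM in wt and 7.81, 9.07 and 5.61 CPM in knockdown. The groups did not overlap, but knockdown 3 was close to wt 2 and wt 3. The log2 fold change was 1.07 (SE 0.56, adjusted p = 0.355 in edgeR) and 0.61 without wt 1. The ratio of Bard1 to Brca1 in FPKM was 2.60, 0.914 and 0.490 in wt and 1.21, 1.18 and 1.23 in knockdown, so the wt values surrounded those of knockdown.

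Brip1, a helicase that binds BRCA1, stood at 1.01, 2.42 and 2.65 CPM in wt and 3.84, 3.91 and 2.82 CPM in knockdown. The groups were apart by a narrow margin, with a log2 fold change of 0.80 (SE 0.40), or 0.47 without wt 1. Brca2, a mediator of strand exchange, had a log2 fold change of 0.91 (SE 0.63), or 0.44 without wt 1, with overlapping groups. Palb2, the link between BRCA1 and BRCA2, was the 1 lower gene of the group at -0.15 (SE 0.35).

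**Figure D4:**
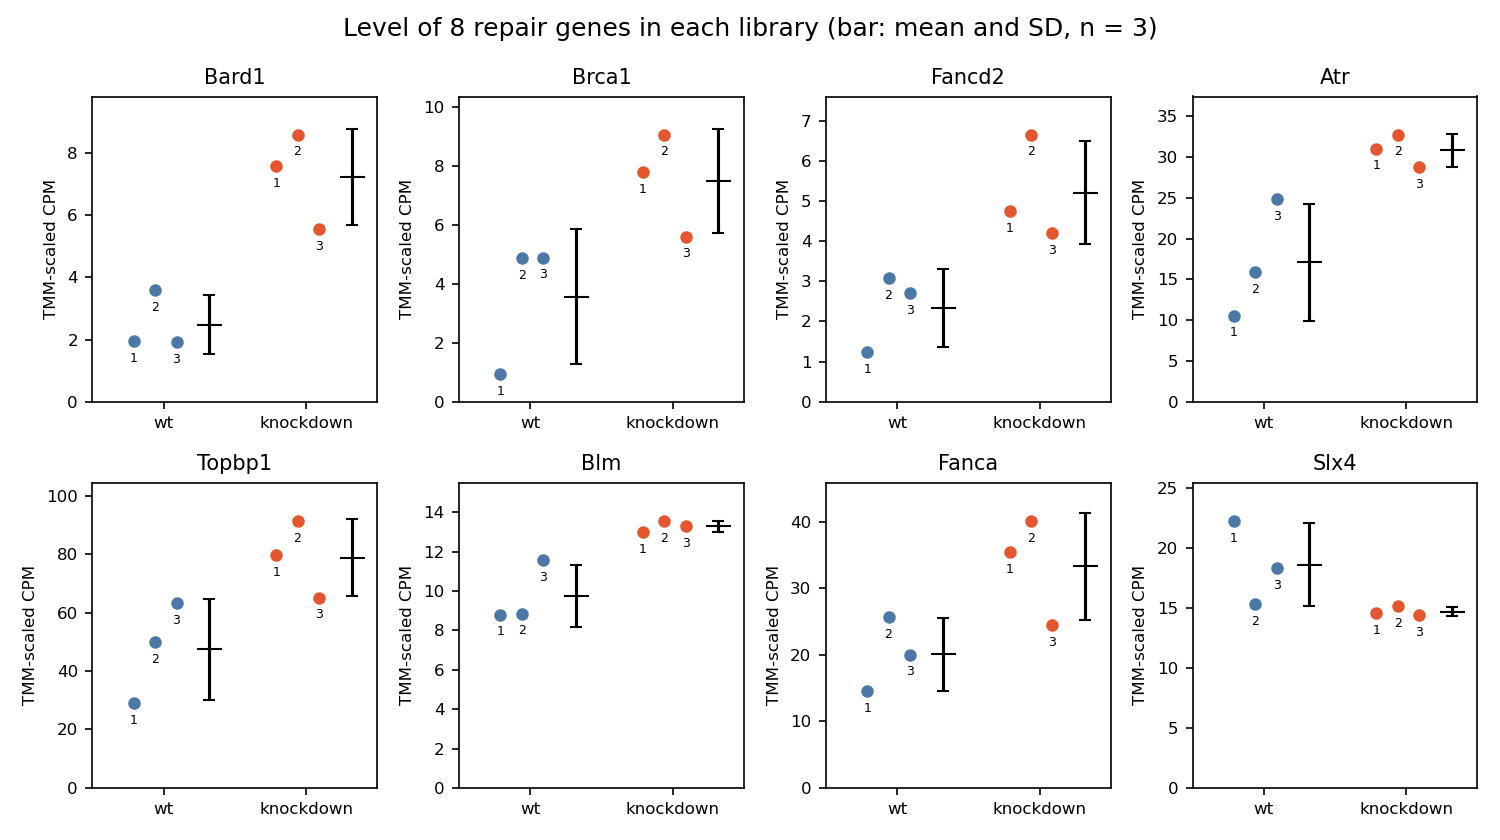
TMM-scaled CPM (vertical axis, from 0) of 8 repair genes in each wt (blue) and knockdown (red) library, with replicate numbers under the points and the mean and SD of 3 libraries beside them. Bard1, Brca1, Fancd2, Atr, Topbp1 and Blm are higher in every knockdown library, Fanca overlaps, and Slx4 is lower in every knockdown library.

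All 6 checkpoint genes had a positive difference, with a median log2 fold change of 0.86, or 0.59 without wt 1, when Chek2 was below 0. Atr (chr9:95857597-95951781, plus strand), the kinase of stalled forks, stood at 10.6, 15.9 and 24.8 CPM in wt and 31.1, 32.8 and 28.7 CPM in knockdown. The knockdown libraries lay close together above a wide wt range, with a mean of 30.9 ± 2.02 above one of 17.1 ± 7.21 (SD, n = 3). Here the log2 fold change was 0.85 (SE 0.29, adjusted p = 0.328 in edgeR) and 0.60 without wt 1. Exons of Atr overlap those of other annotated genes, among them Gm24004 on the same strand, so its counts are uncertain.

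Topbp1 (chr9:103305215-103350428, plus strand) was the most abundant checkpoint gene per length. Its level was 29.1, 49.9 and 63.3 CPM in wt and 79.7, 91.4 and 65.2 CPM in knockdown. The groups were separated only by the gap between wt 3 and knockdown 3, and the log2 fold change was 0.73 (SE 0.28), or 0.47 without wt 1. DESeq2 gave it an adjusted p of 0.212 with all libraries. Without wt 1 and knockdown 3, where 10.2% of the genes with an adjusted p were called, it was 0.0367.

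Chek1, the effector kinase of ATR, had the largest difference of the checkpoint group. It stood at 1.07, 3.92 and 5.40 CPM in wt and 7.83, 11.4 and 5.33 CPM in knockdown, so that knockdown 3 lay just below wt 3. The log2 fold change was 1.24 (SE 0.56), or 0.81 without wt 1, and DESeq2 gave an adjusted p of 0.208 with all libraries. Without wt 1 and knockdown 3, where 10.2% of the genes with an adjusted p were called, DESeq2 gave 0.0239. Atm, the kinase of double-strand breaks, stood at 5.15, 7.70 and 14.4 CPM in wt and 16.6, 19.8 and 13.3 CPM in knockdown, with overlap at wt 3 and a log2 fold change of 0.87 (SE 0.37). Clspn, claspin, the adaptor through which ATR reaches CHEK1, stood at 1.80, 5.92 and 5.37 CPM in wt and 7.86, 12.2 and 5.61 CPM in knockdown. Its groups also overlapped, with a log2 fold change of 0.97 (SE 0.48), or 0.60 without wt 1. Chek2, the effector kinase of ATM, differed by 0.01 (SE 0.32), and by -0.23 without wt 1.

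The end-processing genes differed less, with a median log2 fold change of 0.37 over 5 genes, all positive, and of 0.20 with 4 positive without wt 1. None reached an unadjusted p under 0.05 and none had groups apart. Rad50, of the complex of Mre11a and Nbn that first binds a broken end, stood at 7.37, 13.3 and 15.5 CPM in wt and 19.7, 18.1 and 15.3 CPM in knockdown. Its log2 fold change was 0.56 (SE 0.28), beside 0.35 (SE 0.19) for Mre11a and 0.37 (SE 0.21) for Nbn, so the differences of the complex's 3 genes lay within their errors of each other. Without wt 1 they were 0.30, 0.19 and 0.20. Rbbp8, the highest of all 42 genes per length, stood at 31.7, 47.3 and 57.6 CPM in wt and 51.2, 54.5 and 49.5 CPM in knockdown. Its knockdown libraries lay within the wt range, and the log2 fold change of 0.18 (SE 0.21) became -0.02 without wt 1. Exo1, a long-range resection nuclease, had 1.04 (SE 0.67), or 0.54 without wt 1, with wt 1 far below the other libraries.

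The 9 strand-exchange genes divided into 6 higher and 3 lower, with a median log2 fold change of 0.81, and into 8 higher and 1 lower with a median of 0.48 without wt 1. Rad54b, a motor protein related to RAD54, stood at 0.506, 1.10 and 1.20 CPM in wt and 1.50, 3.75 and 1.78 CPM in knockdown. All knockdown libraries were higher, knockdown 2 most, with a log2 fold change of 1.32 (SE 0.50), or 1.02 without wt 1. Its exons overlap those of Fsbp on the same strand, so its counts are uncertain. Xrcc2, a partner of Rad51d, stood at 1.72, 3.52 and 2.51 CPM in wt and 5.01, 6.68 and 3.17 CPM in knockdown, with overlap and a log2 fold change of 0.94 (SE 0.39).

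Rad51b and Xrcc3 were also wholly higher, at low levels. Rad51b stood at 0.0844, 0.846 and 0.909 CPM in wt and 1.76, 1.12 and 1.04 CPM in knockdown. The wt 1 value is that of its 3 counts, and the log2 fold change of 1.08 (SE 0.72) was 0.57 without it. Xrcc3 stood at 1.01, 1.04 and 0.642 CPM in wt and 1.22, 1.79 and 1.12 CPM in knockdown, wholly higher with a log2 fold change of 0.62 (SE 0.39). Its difference was larger without wt 1, at 0.71. Rad51ap1, which assists strand invasion and was the group's most abundant gene per length, stood at 1.24, 3.04 and 3.82 CPM in wt and 5.04, 5.75 and 3.64 CPM in knockdown. Knockdown 3 lay below wt 3, and the log2 fold change was 0.83 (SE 0.43), or 0.48 without wt 1. Rad54l had 0.81 (SE 0.43), or 0.48 without wt 1, while Rad51d (-0.02), Rad52 (-0.05) and Rad51c (-0.14) had differences smaller than their standard errors. Without wt 1 these were 0.21, 0.07 and -0.27.

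Among the 6 genes that dissolve or resolve joined molecules, 4 were higher and 2 lower, with a median log2 fold change of 0.42, or 0.36 without wt 1. Blm (chr7:80454733-80535119, minus strand), the Bloom helicase, stood at 8.80, 8.85 and 11.6 CPM in wt and 13.0, 13.6 and 13.3 CPM in knockdown. The knockdown libraries lay close together, with means of 9.74 ± 1.59 and 13.3 ± 0.293 (SD, n = 3). Its log2 fold change was 0.45 (SE 0.18), or 0.37 without wt 1. Rmi1, which joins BLM and the topoisomerase TOP3A, stood at 5.45, 4.88 and 7.67 CPM in wt and 8.01, 10.2 and 7.49 CPM in knockdown, with overlap at wt 3 and a log2 fold change of 0.51 (SE 0.25).

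Slx4 (chr16:3979105-4003770, minus strand), the scaffold of the structure-specific nucleases, was the 1 gene lower in every knockdown library. It stood at 22.3, 15.3 and 18.3 CPM in wt and 14.5, 15.1 and 14.4 CPM in knockdown, so wt 2 lay only just above knockdown 2. The log2 fold change was -0.34 (SE 0.18, adjusted p = 0.350 in edgeR) and -0.20 without wt 1. Mus81, a nuclease that SLX4 binds, stood at 10.7, 10.1 and 8.77 CPM in wt and 10.1, 6.95 and 8.04 CPM in knockdown, with overlap and a log2 fold change of -0.24 (SE 0.21). Its partner Eme1 was higher, with a log2 fold change of 0.87 (SE 0.44), or 0.57 without wt 1, and Rmi2 had 0.38 (SE 0.47).

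The Fanconi core complex had a median log2 fold change of 0.23 over 8 genes, of which 6 were higher and 2 lower, and of 0.30 with 7 higher and 1 lower without wt 1. Fanca, a core subunit, stood at 14.6, 25.6 and 20.0 CPM in wt and 35.4, 40.1 and 24.5 CPM in knockdown. Knockdown 3 lay below wt 2, and the log2 fold change was 0.73 (SE 0.26), or 0.54 without wt 1. DESeq2 gave it an adjusted p of 0.203 with all libraries. Without wt 1 and knockdown 3, where 10.2% of the genes with an adjusted p were called, it was 0.0216. Fancm, the translocase that places the complex on DNA, stood at 1.69, 5.64 and 6.28 CPM in wt and 7.35, 9.36 and 6.56 CPM in knockdown. The groups were apart by the small gap between wt 3 and knockdown 3, with a log2 fold change of 0.77 (SE 0.46), or 0.38 without wt 1.

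The other core subunits differed little, apart from Fancb at 1.03 (SE 0.58), or 0.59 without wt 1. Fance, the most abundant core subunit per length, stood at 7.25, 9.67 and 9.92 CPM in wt and 9.89, 10.9 and 8.89 CPM in knockdown. Its groups overlapped, and the log2 fold change of 0.15 (SE 0.20) was 0.01 without wt 1. Fancl, the ubiquitin ligase subunit, had 0.24 (SE 0.19) and Fancc 0.21 (SE 0.25), while Fancf had -0.02 (SE 0.31) and Fancg -0.12 (SE 0.22). Without wt 1 Fancc had 0.38, Fancf -0.11 and Fancg 0.04.

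Of the 3 effectors, the paired targets of the core complex were both higher. Fancd2 (chr6:113531682-113597017, plus strand) stood at 1.24, 3.07 and 2.70 CPM in wt and 4.76, 6.66 and 4.21 CPM in knockdown. All knockdown libraries were higher, with means of 2.34 ± 0.970 and 5.21 ± 1.28 (SD, n = 3), which gave a log2 fold change of 1.16 (SE 0.39, adjusted p = 0.328 in edgeR), or 0.85 without wt 1. Fanci, its partner, stood at 0.900, 2.59 and 2.91 CPM in wt and 4.37, 5.59 and 2.76 CPM in knockdown. Knockdown 3 lay below wt 3, and the log2 fold change was 0.99 (SE 0.48), or 0.62 without wt 1. The ratio of Fancd2 to Fanci in FPKM was 1.32, 1.14 and 0.891 in wt and 1.05, 1.15 and 1.47 in knockdown, with overlap. Fan1, a nuclease brought in by FANCD2, differed by 0.04 (SE 0.35), and by -0.003 without wt 1.

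Exons of another annotated gene overlapped those of 20 of the 42 genes. In most cases this was on the opposite strand, as with Fancd2os for Fancd2, Zfp276 for Fanca and Polg for Fanci. Xrcc3 and Fancm also had overlaps on the opposite strand. Atr and Rad54b had an overlap on the same strand, with Gm24004 and Fsbp. The counting is not stated to use strand, so reads of such pairs cannot be told apart. No such overlap was annotated for Bard1, Topbp1, Blm, Brca1, Slx4 or Chek1.

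In sums, the proliferation genes and the repair genes were both lowest in wt 1 and highest in knockdown 2. A list of 28 genes of DNA replication and mitosis, among them Mki67, Pcna and Top2a, had 28 higher and 0 lower in knockdown, 6 at an unadjusted p under 0.05, 10 with groups apart, and a median log2 fold change of 0.70, or 0.40 with 9 at an unadjusted p under 0.05 without wt 1. Its summed level was 419, 930.1 and 797 CPM in wt and 1181, 1375 and 919 CPM in knockdown. The groups thus overlapped, with wt 2 above knockdown 3. As FPKM the list's sum was 174, 307.9 and 274 in wt and 427, 543 and 318 in knockdown, without overlap. The summed level of the 42 repair genes was 245, 344 and 390.3 CPM in wt and 470.4, 519 and 395 CPM in knockdown. On the CPM scale the repair sum was wholly higher in knockdown by the gap between wt 3 and knockdown 3, and on the FPKM scale, at 49.2, 67.2 and 77.5 in wt and 97.4, 117 and 76.8 in knockdown, it overlapped. In bulk RNA, more cells of a type or in cycle and more RNA per cell cannot be told apart.

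Set against the proliferation list, the repair sum in CPM no longer separated the groups, while the sum in FPKM overlapped without it. The ratio of the 2 sums was 0.586, 0.370 and 0.490 in wt and 0.398, 0.377 and 0.430 in knockdown, so the knockdown values lay within the wt range. Taken gene by gene as CPM per 1000 CPM of the list, 2 repair genes were higher in every knockdown library, 7 were lower in every one, and 33 overlapped. The 2 were Bard1, at 4.63, 3.85 and 2.42 in wt and 6.42, 6.25 and 6.04 in knockdown, and Fancd2, at 2.95, 3.30 and 3.39 in wt and 4.03, 4.84 and 4.58 in knockdown. Over all genes tested 2.20% were wholly higher on this scale and 32.7% wholly lower, and the 7 repair genes wholly lower were Rad52, Palb2, Nbn, Fance, Fancf, Slx4 and Mus81. These ratios are a description, and the part of proliferation in the differences was not tested. Each ratio also moves with the list's own sum, which was 419 CPM in wt 1 and 797 to 1375 CPM in the other libraries.

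**Figure D5:**
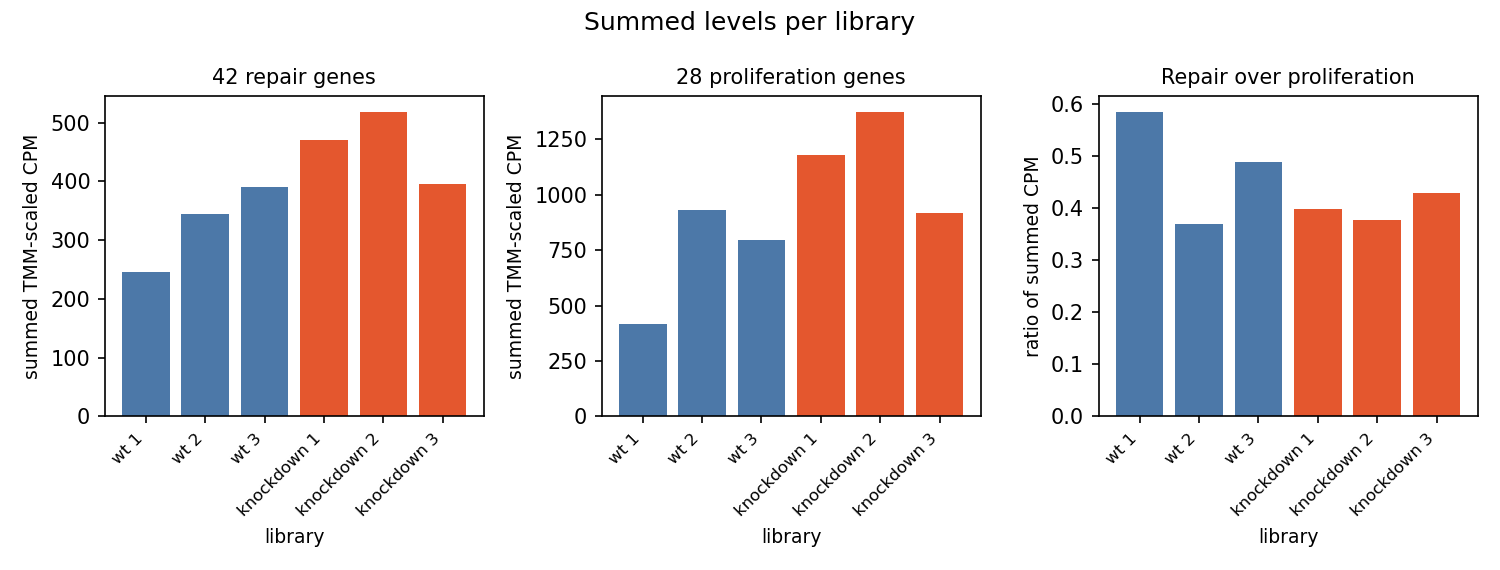
Summed TMM-scaled CPM of the 42 repair genes (left) and of the 28 proliferation genes (middle) in each library, and their ratio (right), with wt in blue and knockdown in red and all axes from 0. Both sums are lowest in wt 1 and highest in knockdown 2, and the ratio is highest in wt 1, at 0.586.

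Markers of several cell types also stood at different levels in the groups. All 10 macrophage markers were lower in knockdown, 6 at an unadjusted p under 0.05 and 7 with groups apart, with a summed level of 6599 to 7154 CPM in wt and 3826 to 6136 CPM in knockdown. All 9 fibroblast markers were higher, 3 at an unadjusted p under 0.05, or 4 without wt 1. Their sums were 32.5 to 490.3 CPM in wt and 368 to 714 CPM in knockdown, most of it Col3a1, while Col1a1 reached no more than 5.52 CPM. The 6 T cell markers found were higher, 3 at an unadjusted p under 0.05, or 0 without wt 1. They summed to 13.9 to 74.4 CPM in wt and 59.3 to 160 CPM in knockdown. The 4 NK cell markers were higher, 1 at an unadjusted p under 0.05, at 8.60 to 13.5 and 11.3 to 41.8 CPM. Neutrophil markers summed to 1311 to 1632 CPM in wt and 637 to 1267 CPM in knockdown, with 5 of 5 tested lower. Carcinoma and epithelial markers summed to 35.2 to 137 CPM in wt and 129 to 191 CPM in knockdown, with overlap. Most of it was Krt8 except in wt 1, where Cdh1 stood at 24.3 and Krt8 at 9.90 CPM. Of 3 tested, 2 were higher and 1 lower, which was Cdh1 at -0.41 (SE 0.30), or -0.16 without wt 1. B cell markers (3.97 to 31.6 and 8.67 to 45.2 CPM), dendritic cell markers (181 to 298 and 213 to 287 CPM) and endothelial markers (29.5 to 36.5 and 27.5 to 30.3 CPM) overlapped. The part of these cell types in the levels of the repair genes was not tested.

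Other genes of the same pathways, 35 of which were tested, were also more often higher than lower, at 25 to 10, with a median log2 fold change of 0.26. Without wt 1 these were 26 to 9 and 0.13. Of them 6 were higher and 1 lower at an unadjusted p under 0.05, or 4 and 0 without wt 1, with 10 wholly higher and 1 wholly lower. Wee1, the kinase that restrains mitotic entry, stood at 11.6, 20.1 and 17.3 CPM in wt and 31.6, 31.3 and 25.7 CPM in knockdown, wholly higher with a log2 fold change of 0.85 (SE 0.22). Rad18, a ubiquitin ligase of stalled forks, had 0.73 (SE 0.27) and Sfr1, an accessory factor of recombination, 0.38 (SE 0.15), both wholly higher. None had an adjusted p under 0.05 in edgeR or DESeq2.

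Other repair routes had medians between 0.01 and 0.41. The 7 mismatch repair genes were all higher, 1 at an unadjusted p under 0.05, with a median log2 fold change of 0.41, led by Msh6 at 0.41 (SE 0.14). Of 11 end-joining genes 8 were higher and 3 lower, 2 and 0 at an unadjusted p under 0.05, with a median of 0.41, led by Xrcc6, the Ku70 subunit, at 0.52 (SE 0.20). The 18 base excision genes had 12 higher and 6 lower, with a median of 0.06. The 13 nucleotide excision genes had 7 higher and 6 lower, 1 and 0 at an unadjusted p under 0.05, with a median of 0.01, led by Ddb1 at 0.33 (SE 0.13). Without wt 1 the medians were 0.31 for mismatch repair, 0.31 for end joining, 0.12 for base excision and 0.08 for nucleotide excision. The genes higher and lower were then 6 and 1, 8 and 3, 13 and 5, and 10 and 3 in the same order. The medians were not tested against each other.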

How the data were processed

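Per the labels, RNA of 3 wt and 3 knockdown libraries was sequenced. The authors deposited raw counts and FPKM values for each gene. In all 22377 genes the FPKM values could be rebuilt from the counts with a single transcript length and the library's total, so they carry no further scaling. The submitters' processing notes name the build mm10, and the aligner and the counting tool are not given in the sources used here. Counts were compared with edgeR 4.0.16 in R 4.3.3 (filterByExpr, TMM, glmQLFit, glmQLFTest, Benjamini-Hochberg over the 13884 genes tested, threshold 0.05). Only the fits use all genes, and only the repair genes and fixed lists are printed. Standard errors were derived from each log2 fold change and its F statistic. CPM are TMM-scaled counts, and log2 CPM used a prior count of 2. Alternatives used other scalings and filters, DESeq2 1.42.0, limma 3.58.1 on log2 of the FPKM plus 1 or 0.1, the replicate block and leaving out libraries. DESeq2 without wt 1, DESeq2 without wt 1 and knockdown 3, and the ratios of single genes to the proliferation list were added after seeing the data. The scripts were tested on simulated data.

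The 42 genes, the lists and the choices of libraries were taken with earlier results of these data known. Values per library are given for genes whose groups do not overlap, for the 8 with the smallest p among the rest, for the gene of each role group with the highest mean FPKM, and for genes with low counts. Up to 3 genes by smallest p were named from other lists. Krt8, Krt19, Cldn4, Cdh1, Col1a1, Col3a1, Itgam, Adgre1, Mertk and S100a9 were named after their values were seen. Coordinates and exons are those of GENCODE M21 on GRCm38. Older symbols were matched through synonyms (Bre as Babam2, Fam175a as Abraxas1), and Atrip, H2afx and Trac were not matched. Promoters are from RefSeq, and 9 of the 42 genes had no entry. No 2 libraries of the same group agreed within sampling noise. p-values measure the spread between these libraries, and the animals behind them are not named. Some values of single genes from the lists are not reported here.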

Additional observations from a re-analysis of the deposited data

How the results depend on the processing

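Over all 42 repair genes, 31 kept their sign in each of 17 alternatives, and 50 of 713 values changed sign, in Chek2, Fan1, Fance, Fancf, Fancg, Palb2, Rad51c, Rad51d, Rad52, Rbbp8 and Rmi2, none of which differed by more than 0.38 in edgeR. Of 24 named repair genes and Npm1 under 17 alternatives, 414 values kept direction and side of the threshold, 6 passed it, all in DESeq2 (Bard1 in 3 settings, Chek1, Fanca and Topbp1 in 1 each), and 4 reversed. The reversals were Fance at -0.012 in DESeq2 without wt 1, and Rbbp8 at -0.023 in edgeR and -0.046 in DESeq2 without wt 1, and at -0.028 in DESeq2 without wt 1 and knockdown 3. Leaving out libraries gave Rbbp8 values from -0.023 to 0.37. Genes called numbered 0 in edgeR, 36 in DESeq2, 71 in DESeq2 without wt 1 and 1267 in DESeq2 without wt 1 and knockdown 3, and repair genes called numbered 0, 1, 1 and 4. Repair genes at an unadjusted p under 0.05 numbered 9 in edgeR and 20 in limma on log2 FPKM plus 1. Without wt 1 and knockdown 3 they numbered 17 in edgeR and 14 in DESeq2. Over all genes these counts were, in the same order, 2112 of 13884, 2774 of 13884, 3290 of 14174 and 3116 of 21760. With libraries left out the count of repair genes ranged from 1 to 17 in edgeR. It was 1 without knockdown 2 and 4 without knockdown 1, beside 669 of 14070 and 775 of 14122 over all genes. The repair genes positive then ranged from 32 to 37 and the median from 0.44 to 0.79, and 0 genes were called in edgeR. The cause was not tested.

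No pairing by replicate number was seen: deviations of same-numbered libraries correlated at -0.241, 0.0605 and -0.337. With 3 libraries a group and wt 1 standing apart, this cannot exclude a pairing. With the replicate block edgeR called 0 genes, 1606 were at an unadjusted p under 0.05 against 2112 without it, and 9 repair genes were so and 35 were positive, with a median of 0.68. FPKM take no account of composition: with limma on log2 FPKM plus 0.1 the median of all genes was 0.16, against 0.02 in edgeR. Depth limits Rad51b, with 3 counts in wt 1, and 3 libraries a group limit every test here.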
